A study of Homo sapiens with 30 samples.

Results

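The mitosis and G2/M genes described here are 44 genes that carry a cell from the end of G2 through chromosome segregation to cytokinesis. They were taken by symbol, through their Ensembl gene IDs, from a table of raw read counts with 33538 genes and 30 libraries. The rule that lists them uses no measured value, but the genes were chosen with earlier results of these data known. Each of the 44 was found and passed the filter on low counts, so all 44 were among the 16713 genes tested.

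The libraries are poly(A)-selected RNA of 3 Ewing sarcoma cell lines, CHLA10, A673 and TC32, each with the genotype label EWS::FLI1, the fusion transcription factor that drives this tumour of bone and soft tissue. The agent was BMS-986158 at 5 nM, which blocks the bromodomains by which BET proteins hold acetylated chromatin, and controls had its solvent DMSO. There were 3 libraries in each of 10 groups: BMS-986158 and DMSO for 3 days (72 hours) in CHLA10, A673 and TC32, and BMS-986158 and DMSO for 20 days in CHLA10 and A673. The 20-day treated cells, called persister cells in the labels, were kept in the inhibitor without a break, and the labels do not say for how long the 20-day DMSO cells received DMSO. The medium of CHLA10 (IMDM) was not that of A673 and TC32 (RPMI), so the effects of line and of medium cannot be told apart. Whether the 3 replicates of a group came from separate cultures is not said, so the p-values below measure library-to-library spread that may be technical.

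Entry into mitosis is driven by CDK1 bound to cyclin B, which the kinases WEE1 and PKMYT1 hold in check and the CDC25 phosphatases release. The transcription factor FOXM1, with the MuvB complex and B-MYB, switches on a common set of genes late in the cell cycle, among them the cyclins B, the Aurora and Polo-like kinases, and parts of the kinetochore and spindle. The spindle checkpoint then holds back the anaphase-promoting complex until each chromosome is attached, after which securin and cyclin B are destroyed, separase cuts cohesin, and the cell divides. In bulk RNA, fewer cells in G2 and mitosis and less RNA of these genes per cell cannot be told apart.

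Many late cell cycle promoters hold a cell cycle homology region (CHR), which MuvB complexes bind, and CCAAT boxes, bound by NF-Y. Promoter sequence from RefSeq (GRCh38.p14, 250 bases before to 50 bases after a transcript start) was found for 35 of the 44 genes, in 47 windows. A CHR (TTTGAA or TTCGAA, either strand) was in 30 of 47 windows (63.8%), against 5742 of 35116 RefSeq windows of the same length (16.4%). At least 1 CCAAT box (those letters on either strand) was in 34 of 47 windows (72.3%), against 12155 of all windows (34.6%), and both motifs were in 24 (51.1%), against 2239 of all windows (6.38%). In TC32, where most of the genes changed, 25 of the 44 fell, and 19 of those had a window. A CHR was in the promoter of 13 of these 19. It was in that of 14 of the 15 genes with a window that were not called, and not in that of the 1 that rose. A match is a description of these letters and not of a bound site.

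The 4 windows printed are those of BUB1, CCNB2, CDC20 and CDC25B, the first by alphabet among genes with both motifs and a called change under BMS-986158. They are windows that hold both motifs, as did those of 22 of the 35 genes. Capitals mark each CHR and CCAAT match, on either strand, and the printed matches do not overlap each other. The window of BUB1 is chr2:110678014-110678313 on the minus strand, that of CCNB2 is chr15:59104896-59105195 on the plus strand, that of CDC20 is chr1:43358731-43359030 on the plus strand and that of CDC25B is chr20:3796060-3796359 on the plus strand, each written 5′ to 3′ on its strand.
BUB1: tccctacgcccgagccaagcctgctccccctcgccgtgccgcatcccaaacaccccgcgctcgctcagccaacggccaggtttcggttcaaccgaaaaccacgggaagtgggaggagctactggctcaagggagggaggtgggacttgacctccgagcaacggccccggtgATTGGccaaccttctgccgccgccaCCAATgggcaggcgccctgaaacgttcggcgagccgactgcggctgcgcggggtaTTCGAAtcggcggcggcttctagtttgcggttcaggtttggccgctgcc
CCNB2: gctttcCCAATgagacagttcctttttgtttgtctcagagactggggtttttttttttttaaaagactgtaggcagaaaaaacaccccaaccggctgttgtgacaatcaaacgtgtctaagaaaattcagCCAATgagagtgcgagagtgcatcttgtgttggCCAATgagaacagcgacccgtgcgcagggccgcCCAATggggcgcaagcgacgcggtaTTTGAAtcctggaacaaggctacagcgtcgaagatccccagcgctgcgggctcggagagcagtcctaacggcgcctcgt
CDC20: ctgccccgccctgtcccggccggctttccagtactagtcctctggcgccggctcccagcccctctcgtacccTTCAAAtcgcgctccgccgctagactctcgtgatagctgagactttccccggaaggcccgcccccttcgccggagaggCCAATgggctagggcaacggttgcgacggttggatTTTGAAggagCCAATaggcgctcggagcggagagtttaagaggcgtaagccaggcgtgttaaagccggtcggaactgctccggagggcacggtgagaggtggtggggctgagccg
CDC25B: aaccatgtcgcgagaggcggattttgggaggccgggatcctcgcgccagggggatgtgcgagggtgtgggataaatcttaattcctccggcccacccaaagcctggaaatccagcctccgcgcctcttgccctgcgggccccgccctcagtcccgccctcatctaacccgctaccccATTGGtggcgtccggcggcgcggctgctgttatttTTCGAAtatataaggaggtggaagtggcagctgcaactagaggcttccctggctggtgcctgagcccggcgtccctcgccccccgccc
In CCNB2 a TTTGAA begins 29 bases before the start, and 4 CCAAT boxes stand upstream of it. CDC25B has a TTCGAA 38 bases before its start with 1 CCAAT on the opposite strand, 73 bases before it. Their levels follow with the other genes of the switch into mitosis.

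Total counts ran from 16083677 to 48949739 per library. The 4 libraries farthest from the other replicates of their groups were A673 20-day BMS-986158 replicate 3, A673 3-day DMSO replicate 3, CHLA10 20-day BMS-986158 replicate 3 and CHLA10 20-day DMSO replicate 3, with SDs of the log2 differences from 0.409 to 0.555, against 0.211 to 0.38 in the other 26. Counts that rest on them are given without them as well. Ewing sarcoma genes were present in every group, with CD99 at 339 to 3153 CPM (counts per 1000000 counts, after TMM scaling) and PRKCB at 216 to 814 CPM, whereas NKX2-2 went down to 0.0397 CPM and GLI1 to 0.367 CPM in single libraries. Of the markers of other cells, PTPRC reached 0.395, VWF 0.455 and EPCAM 1.47 CPM, and CD3E had no counts. CD68 was at 3.28 to 20.7 CPM over the libraries, and KDR reached 10.3, PECAM1 4.99 and KRT8 25.5 CPM. Of 5 fibroblast markers, DCN and LUM were at most 10.8 CPM, but COL1A1 reached 628 CPM and COL1A2 1650 CPM. The summed level of the 5 was 889 to 2457 CPM under BMS-986158 and 673.1 to 769 CPM under DMSO in A673 at 20 days, but lower under BMS-986158 in the other 4 comparisons, for example 20.4 to 29.5 CPM against 37.3 to 39.4 CPM under DMSO in TC32. Likewise 5 epithelial markers, KRT18 among them, summed to 120 to 649 CPM under BMS-986158 and 124 to 152 CPM under DMSO in A673 at 20 days. In TC32 the summed level of 10 Ewing sarcoma genes was 5903 to 5983 CPM under BMS-986158 and 7607 to 7781 CPM under DMSO. Whether any of this bears on the genes described was not tested.

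The genes fell most widely in TC32. There 25 of 44 fell and 1 rose after 3 days of BMS-986158 (edgeR's quasi-likelihood test, Benjamini-Hochberg adjusted p under 0.05 over all genes), or 56.8% and 2.27%, against 22.8% of all genes tested that fell and 22.3% that rose. In CHLA10 at 3 days 10 fell and 0 rose (22.7% and 0%), where 15.7% of all genes fell and 14% rose. In A673 at 3 days 8 fell and 0 rose; the 18.2% that fell is near the 18.4% of all genes that did, while 15.3% of all genes rose. At 20 days the lines parted: 16 genes fell and 1 rose in A673 (36.4% and 2.27%, against 19.9% and 19.7% of all genes), and 1 fell and 8 rose in CHLA10 (2.27% and 18.2%, against 17.2% and 16.5%), so the share that rose in CHLA10 is near the background. The median log2 change of the 44 genes was -0.36 in TC32, -0.13 in CHLA10 and -0.09 in A673 at 3 days, 0.14 in CHLA10 and -0.18 in A673 at 20 days, and the median of all genes lay between -0.02 and 0.00 in each. In either direction, 26, 10 and 8 of the 44 were called in TC32, CHLA10 and A673 at 3 days, against 45.1%, 29.8% and 33.7% of all genes, and 9 and 17 in CHLA10 and A673 at 20 days, against 33.7% and 39.7%.

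**Figure D1:**
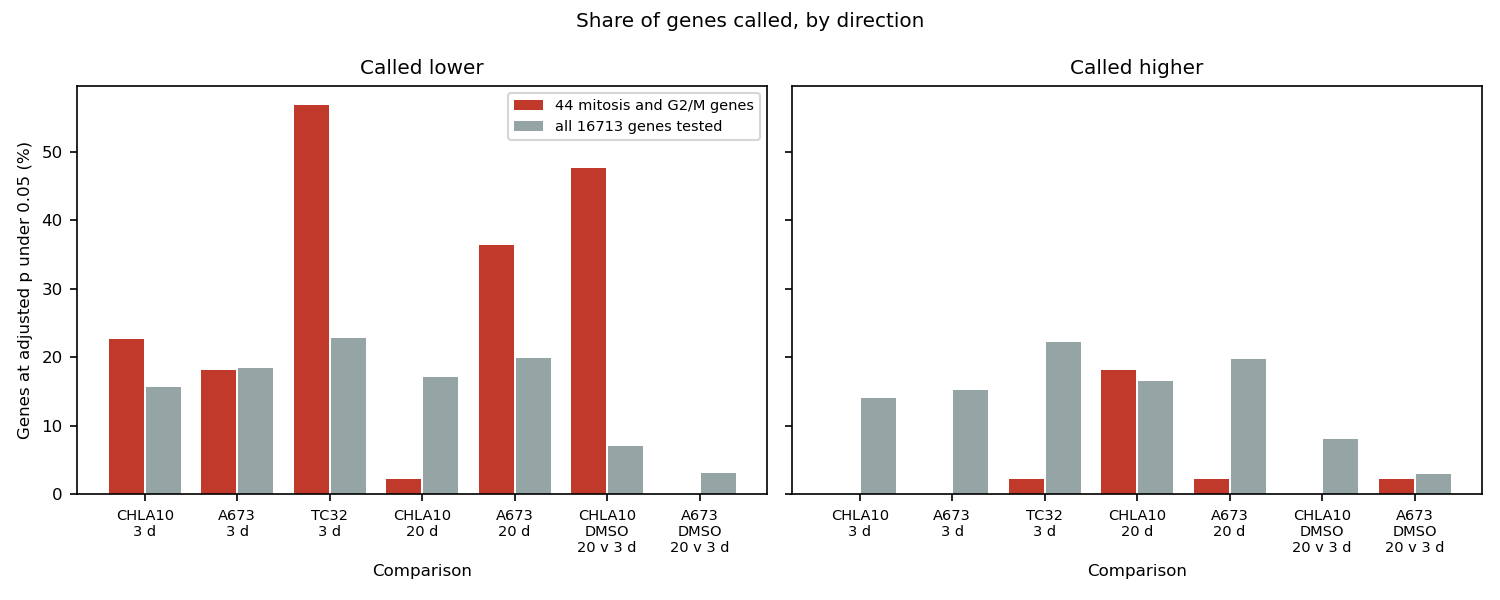
Percent of the 44 genes (red) and of all 16713 genes tested (grey) called lower (left panel) or higher (right panel) at adjusted p under 0.05, for BMS-986158 against DMSO in 5 comparisons and for 20-day against 3-day DMSO in 2. In TC32 56.8% of the 44 genes were lower, against 22.8% of all genes, and in 20-day against 3-day DMSO of CHLA10 47.7%, against 7.06%.

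The changes were small. Only AURKA and BIRC5 in TC32 fell at least 2-fold, 2 of 44 genes where 11.1% of all genes fell by that much, and none rose that far (4.98% of all genes). In the other comparisons with DMSO 0 of the 44 fell or rose at least 2-fold, where 7.76% of all genes fell and 3.39% rose by that much in CHLA10 and 10.8% and 2.23% in A673 at 3 days, and 9.04% and 4.81% in CHLA10 and 10.3% and 6.34% in A673 at 20 days. AURKA in A673 at 20 days lay just short of it (-1.0). In TC32 the groups did not overlap for 28 of the 44, all lower under BMS-986158, against 28% of all genes that were lower and 27% that were higher without overlap. Over those 5 comparisons 35 of the 44 genes were called at least once, and 31 fell and 10 rose at least once, against 44.6% of all genes that fell and 43.5% that rose at least once. Those called in none were WEE1, BUB3, CENPF, KIF11, KIF18A, KIF23, PRC1, ECT2 and TOP2A, 9 of 44, against 22% of all genes, so this count is near the background. PKMYT1, AURKA and PLK1 fell in all 3 lines at 3 days; this is 3 of 44 genes, against 5.12% of all genes, which is near the background, and 0 rose in all 3 (background 4.77%). FOXM1, INCENP, BIRC5, UBE2C, PTTG1 and CENPA, 6 of 44, rose in CHLA10 at 20 days and fell in at least 1 other comparison, where 10.1% of all genes were called in opposite directions. Without 20-day DMSO replicate 2 of CHLA10 the rises of INCENP and CENPA were still called there and those of FOXM1, BIRC5, UBE2C and PTTG1 were not (adjusted p = 0.148, 0.0539, 0.103 and 0.0792 in that order). Mitochondrial genes took 3.82 to 4.74% of the counts under BMS-986158 and 2.99 to 3.64% under DMSO in TC32, without overlap, and their part in the fall there was not tested. In A673 at 3 days they took 2.83 to 4.82% under BMS-986158 and 2 to 5.53% under DMSO, the lowest in DMSO replicate 3.

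**Figure D2:**
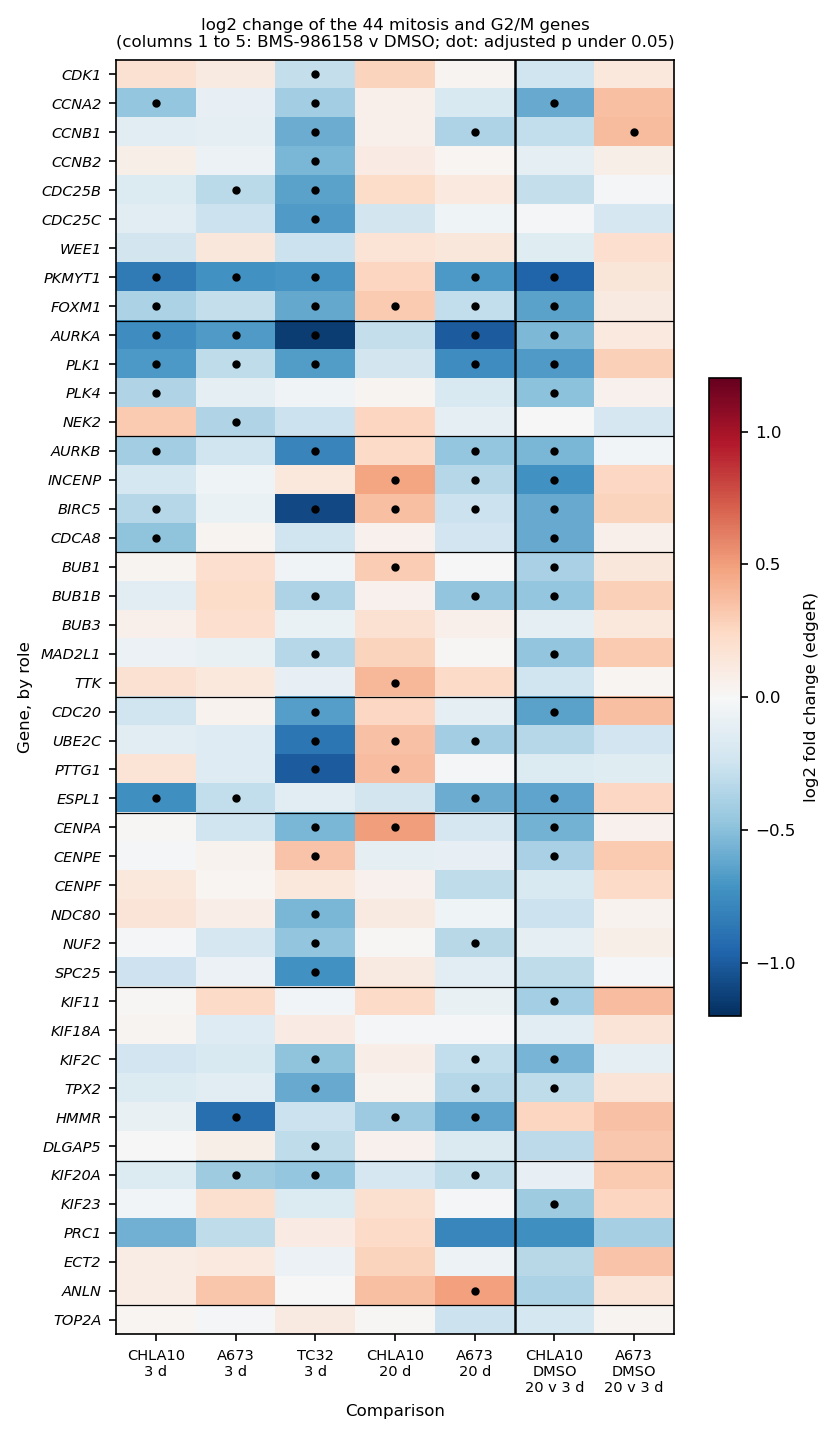
Fitted log2 change of each of the 44 genes (rows, in blocks by role from the CDK1 switch at the top to TOP2A at the bottom) in BMS-986158 against DMSO (first 5 columns) and 20-day against 3-day DMSO (last 2 columns); blue is lower, red is higher, and a dot marks adjusted p under 0.05. The row of AURKA runs from -1.14 in TC32 to -0.29 in CHLA10 at 20 days, and the 20-day CHLA10 column is the one with most red, with 8 genes called higher.

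Among the 9 genes of the CDK1 and cyclin switch, 8 fell in TC32, 3 in CHLA10 and 2 in A673 at 3 days, and at 20 days 3 fell in A673 and 1 rose in CHLA10. Of all genes 22.8%, 15.7% and 18.4% fell in those lines at 3 days, in that order. At 20 days 19.9% of all genes fell in A673 and 16.5% rose in CHLA10. PKMYT1, the membrane-bound kinase that inhibits CDK1 (ENSG00000127564, chromosome 16, 2968024 to 2980539, minus strand, GRCh38), had the widest range of change. In CHLA10 at 3 days it had 54.5, 60.5 and 60.1 CPM under BMS-986158, against 96.0, 113 and 107 CPM under DMSO. At 20 days it had 62.8, 65.0 and 66.1 CPM under BMS-986158, against 46.1, 39.7 and 77.1 CPM under DMSO. The treated libraries of CHLA10 lay close together at both times, and 1 of the 20-day DMSO libraries lay above the treated ones while the other two lay below. In A673 it had 54.0, 64.1 and 63.2 CPM under BMS-986158, against 95.1, 101 and 104 CPM under DMSO at 3 days. By 20 days it had 68.0, 72.8 and 65.0 CPM under BMS-986158, against 113, 109.9 and 109 CPM under DMSO. TC32 had 40.2, 38.6 and 37.4 CPM under BMS-986158, against 64.3, 69.5 and 55.9 CPM under DMSO. The groups did not overlap in A673 at either time, in TC32 or in CHLA10 at 3 days. The log2 change was -0.85 ± 0.14 in CHLA10, -0.73 ± 0.14 in A673 and -0.71 ± 0.14 in TC32 at 3 days (SE of the fit; adjusted p = 3.93e-05, 0.000234 and 0.000216 in that order), and -0.69 ± 0.14 in A673 at 20 days (adjusted p = 0.000269). At 20 days in CHLA10 it was 0.25 ± 0.14 (adjusted p = 0.176). PAQR4 overlaps its span on the opposite strand and had 42.3% as many counts. Shared exons were not looked for, and the strand setting of the counting is not given in the sources used here. So it is not known whether reads of PAQR4 were counted for PKMYT1.

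FOXM1, the transcription factor of late cell cycle genes (ENSG00000111206, chromosome 12, 2857681 to 2877155, minus strand), had 152, 147 and 137 CPM under BMS-986158, against 184, 192 and 192 CPM under DMSO in CHLA10 at 3 days. After 20 days it was at 156, 156 and 142 CPM under BMS-986158, against 105, 110.1 and 149 CPM under DMSO. At 3 days each treated library was below each DMSO library, and at 20 days DMSO replicate 3 lay among the treated libraries, above 1 of them. A673 libraries had 112, 113 and 117 CPM under BMS-986158, against 131, 147 and 138 CPM under DMSO at 3 days. At 20 days A673 had 133, 128 and 104 CPM under BMS-986158, against 157, 146 and 145 CPM under DMSO. TC32 had 63.9, 87.7 and 84.8 CPM under BMS-986158, against 113, 136 and 113 CPM under DMSO. In A673 and TC32 the treated libraries were below the DMSO libraries without overlap. FOXM1 fell in CHLA10 (-0.38 ± 0.12, adjusted p = 0.0148) and TC32 (-0.61 ± 0.12, adjusted p = 0.000138) at 3 days and in A673 at 20 days (-0.29 ± 0.12, adjusted p = 0.0485), and it rose in CHLA10 at 20 days (0.32 ± 0.12, adjusted p = 0.0382). With BIRC5 it is 1 of 2 genes of the 44 that fell at 3 days and rose at 20 days in CHLA10, where 0.299% of all genes did. The rise of FOXM1 was lost without 20-day treated replicate 1 or 2 or DMSO replicate 1 or 2 (adjusted p from 0.0808 to 0.187) and with library-size scaling (0.0570), that of BIRC5 without DMSO replicate 2 (0.0539), and the 3-day falls of both without treated replicate 3 (0.0554 for FOXM1 and 0.0574 for BIRC5). In A673 at 20 days the fall of FOXM1 was lost without any 1 library but treated replicate 1 (adjusted p from 0.0586 to 0.194). RHNO1 and ITFG2 overlap FOXM1 on the opposite strand, with 43.7% and 24.8% as many counts.

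CDK1 itself, the catalytic subunit, had 164, 195 and 183 CPM under BMS-986158, against 229.8, 211 and 219.7 CPM under DMSO in TC32, the only comparison of the 5 in which it was called (-0.28 ± 0.11, adjusted p = 0.0295), and the call was lost without treated replicate 1 or 3 or DMSO replicate 1 or 3 (adjusted p from 0.0573 to 0.128). The cyclins CCNB1 (-0.59) and CCNB2 (-0.55), its mitotic partners, fell in TC32, and CCNB1 fell in A673 at 20 days too (-0.37). CCNB1 in TC32 had 153, 153 and 152 CPM under BMS-986158, against 233, 221 and 237 CPM under DMSO, so the treated libraries lay within 1 CPM of each other and far below DMSO. CCNA2, the cyclin of S phase and early mitosis, fell in CHLA10 (-0.46) and TC32 (-0.42). Both CDC25 phosphatases fell in TC32, CDC25B by 0.64 and CDC25C by 0.68 on the log2 scale, and CDC25B fell in A673 at 3 days as well (-0.32 ± 0.12, adjusted p = 0.0477), a call lost without any 1 of the 6 libraries (adjusted p from 0.0667 to 0.156). WEE1, the nuclear counterpart of PKMYT1, was called in none of the comparisons with DMSO, and its log2 change ran from -0.26 in TC32 to 0.17 in CHLA10 at 20 days. FAM53C overlaps the span of CDC25C on the opposite strand with 342% as many counts, and EXOSC9 that of CCNA2 with 48.9% as many. Whether any of their reads were counted for CDC25C or CCNA2 is not known, as shared exons were not looked for.

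Of the 4 mitotic kinases, 3 fell in CHLA10 and 3 in A673 at 3 days, 2 in TC32, and 2 in A673 and 0 in CHLA10 at 20 days. The shares of all genes that fell were 15.7%, 18.4%, 22.8%, 19.9% and 17.2%, in that order. AURKA, the centrosomal kinase that matures and separates spindle poles (ENSG00000087586, chromosome 20, 56369389 to 56392337, minus strand), fell in each comparison but the 20-day one of CHLA10. In CHLA10 it had 64.0, 67.3 and 66.1 CPM under BMS-986158, against 112, 109 and 111 CPM under DMSO at 3 days. The 20-day libraries had 64.4, 65.3 and 57.3 CPM under BMS-986158, against 71.5, 70.9 and 85.6 CPM under DMSO. The DMSO libraries of CHLA10 were higher at 3 than at 20 days, while the treated libraries lay between 57.3 and 67.3 CPM at both times. A673 cells had 78.9, 76.9 and 78.7 CPM under BMS-986158, against 123, 137 and 117 CPM under DMSO at 3 days. At 20 days it had 75.1, 77.9 and 51.7 CPM under BMS-986158, against 145, 127 and 137 CPM under DMSO, where treated replicate 3 lay below the other two. TC32 had 29.8, 39.3 and 38.02 CPM under BMS-986158, against 79.2, 73.7 and 83.8 CPM under DMSO. No treated library overlapped a DMSO library in any of the 5. The log2 change was -0.75 ± 0.12 in CHLA10 (adjusted p = 1.79e-05), -0.68 ± 0.12 in A673 (adjusted p = 5.15e-05) and -1.14 ± 0.12 in TC32 (adjusted p = 2.51e-08, 2.21-fold lower) at 3 days, -1.0 ± 0.12 in A673 (adjusted p = 1.28e-07) and -0.29 ± 0.12 in CHLA10 (adjusted p = 0.0599) at 20 days.

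**Figure D3:**
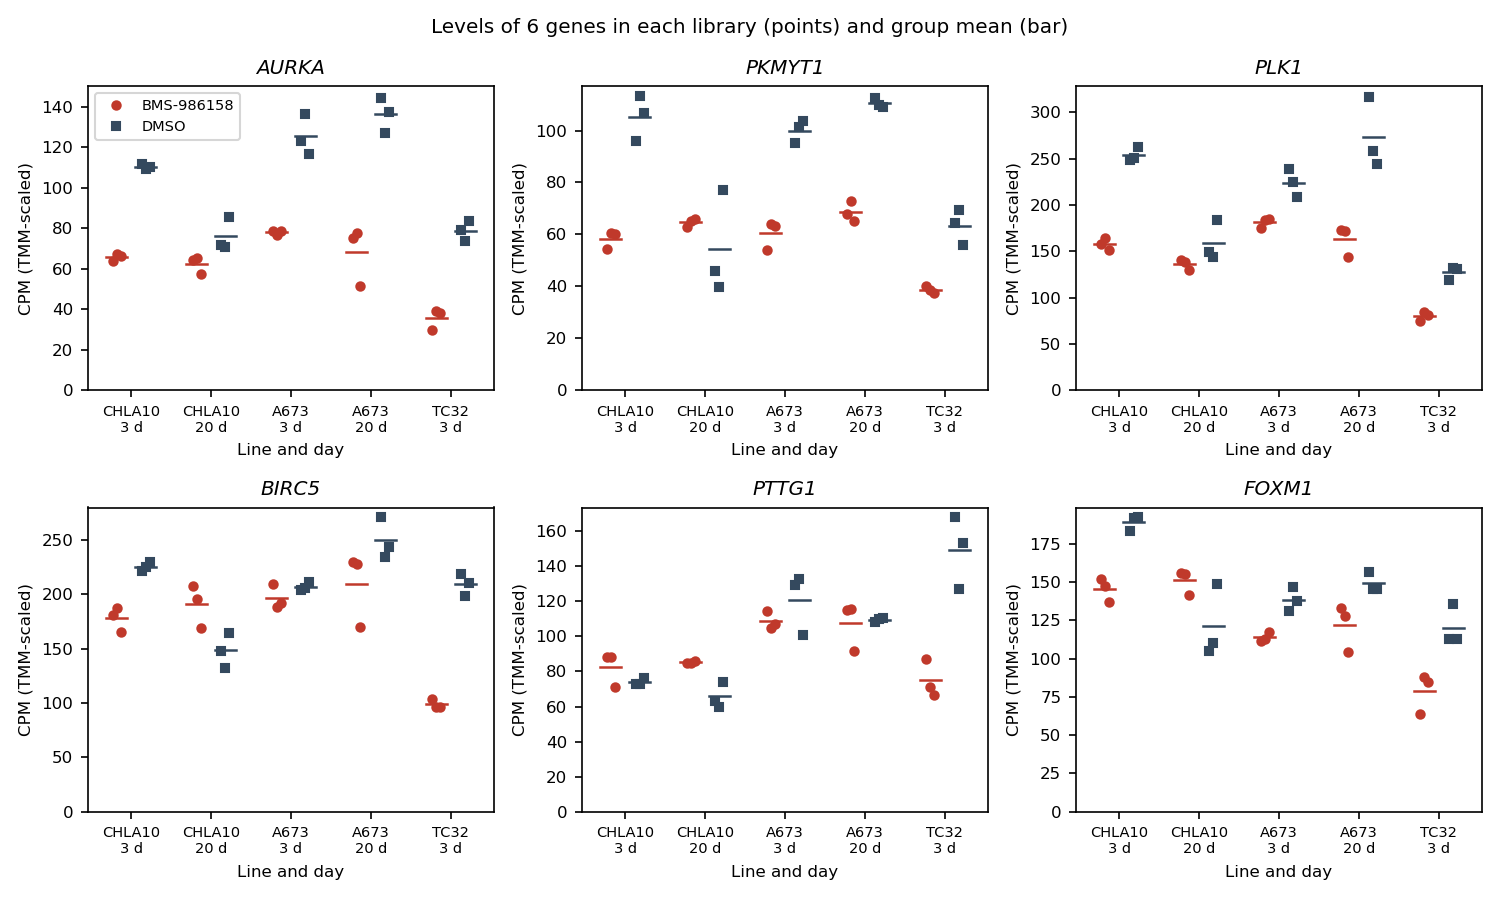
CPM of AURKA, PKMYT1, PLK1, BIRC5, PTTG1 and FOXM1 in each of the 30 libraries (points) with the group mean (bar), BMS-986158 in red left of DMSO in dark blue, for each line and day. AURKA has each treated library below each DMSO library of its line and day, and BIRC5 and PTTG1 show their widest gap in TC32, where BIRC5 was at 96.4 to 104 CPM under BMS-986158 and 199 to 219 CPM under DMSO.

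PLK1, the Polo-like kinase that acts from mitotic entry to cytokinesis, had 173, 172 and 144 CPM under BMS-986158, against 317, 259 and 245 CPM under DMSO in A673 at 20 days. It fell there (-0.75) and in CHLA10 (-0.69), A673 (-0.31 ± 0.10, adjusted p = 0.0167) and TC32 (-0.67) at 3 days. PLK4, which starts centriole duplication, fell in CHLA10 at 3 days only (-0.37 ± 0.11, adjusted p = 0.0125) among the 5 comparisons. Without treated replicate 2 its adjusted p was 0.0568, and that of PLK1 in A673 at 3 days was 0.0729 without treated replicate 1 and 0.0768 without DMSO replicate 1. NEK2, a kinase that splits centrosomes, fell in A673 at 3 days (-0.36), but not without treated replicate 2 or 3 or DMSO replicate 1 or 2 (adjusted p from 0.0690 to 0.122). In CHLA10 at 3 days NEK2 had 69.7, 69.5 and 46.5 CPM under BMS-986158, against 45.5, 51.8 and 52.1 CPM under DMSO (0.31, adjusted p = 0.0566), where treated replicate 3 lay among the DMSO libraries and the other two lay above.

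The chromosomal passenger complex consists of the kinase AURKB with INCENP, BIRC5 (survivin) and CDCA8 (borealin), and corrects faulty attachments at centromeres. At 3 days 3 of its 4 genes fell in CHLA10, 0 in A673 and 2 in TC32, where 15.7%, 18.4% and 22.8% of all genes fell. At 20 days 2 rose in CHLA10 and 3 fell in A673, where 16.5% of all genes rose and 19.9% fell. BIRC5 (ENSG00000089685, chromosome 17, 78214186 to 78225636, plus strand) had 181, 188 and 165 CPM under BMS-986158, against 222, 225 and 229.9 CPM under DMSO in CHLA10 at 3 days. By 20 days it had 208, 196 and 169 CPM under BMS-986158, against 148, 132 and 165 CPM under DMSO. The CHLA10 groups did not overlap at either time, with the treated libraries below DMSO at 3 days and above DMSO at 20 days. The A673 libraries had 209.9, 188 and 192 CPM under BMS-986158, against 204, 206 and 212 CPM under DMSO at 3 days, where the groups overlapped. By 20 days A673 had 230.3, 228 and 169.7 CPM under BMS-986158, against 271, 235 and 243 CPM under DMSO. TC32 had 104, 96.4 and 96.7 CPM under BMS-986158, against 219, 199 and 210.2 CPM under DMSO, with each treated library far below each DMSO library. It fell by 1.08 on the log2 scale in TC32 (SE 0.10, adjusted p = 5.21e-09) and by 0.34 in CHLA10 at 3 days (SE 0.10, adjusted p = 0.0112), by 0.26 in A673 at 20 days (adjusted p = 0.0446), and rose by 0.36 in CHLA10 at 20 days (SE 0.10, adjusted p = 0.00678). The rise was lost without 20-day DMSO replicate 2 (adjusted p = 0.0539), the 3-day fall in CHLA10 without treated replicate 3 (0.0574), and the fall in A673 without treated replicate 3 (0.277) or DMSO replicate 1 (0.185) or 3 (0.0595).

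INCENP, the scaffold of the complex (ENSG00000149503, chromosome 11, 62123973 to 62153163, plus strand), had 147, 139.8 and 122 CPM under BMS-986158, against 157, 158 and 158 CPM under DMSO in CHLA10 at 3 days. After 20 days it was at 136, 139.6 and 119.9 CPM under BMS-986158, against 91.0, 88.8 and 106 CPM under DMSO. The treated libraries lay below DMSO at 3 days and above DMSO at 20 days, and the 20-day DMSO libraries were the lowest of the 4 groups. In A673 it had 165, 170.2 and 184 CPM under BMS-986158, against 174, 169 and 193 CPM under DMSO at 3 days, with overlap. The 20-day A673 libraries had 162, 152 and 187 CPM under BMS-986158, against 227, 201 and 208 CPM under DMSO, without overlap. TC32 had 57.2, 87.9 and 84.9 CPM under BMS-986158, against 63.1, 80.5 and 67.2 CPM under DMSO, with overlap. INCENP rose in CHLA10 at 20 days (0.47 ± 0.12, adjusted p = 0.00383) and fell in A673 at 20 days (-0.34 ± 0.12, adjusted p = 0.0259), and at 3 days it was at -0.21 in CHLA10, -0.05 in A673 and 0.13 in TC32, not called. The fall in A673 was lost without treated replicate 1 or 2 or DMSO replicate 1 (adjusted p from 0.0775 to 0.117). AURKB fell in CHLA10 (-0.42) and TC32 (-0.79) at 3 days and in A673 at 20 days (-0.47). CDCA8 fell in CHLA10 at 3 days (-0.48).

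Of the 5 spindle checkpoint genes, 2 fell in TC32 and 0 in CHLA10 and A673 at 3 days, where 22.8%, 15.7% and 18.4% of all genes fell. At 20 days 2 rose in CHLA10 and 1 fell in A673, where 16.5% of all genes rose and 19.9% fell. BUB1B, which encodes the checkpoint protein BUBR1 (ENSG00000156970, chromosome 15, 40161023 to 40221136, plus strand), had 226, 224 and 231 CPM under BMS-986158, against 189, 198 and 198 CPM under DMSO in A673 at 3 days. At 20 days A673 had 175, 183 and 157 CPM under BMS-986158, against 258, 224 and 232 CPM under DMSO. In A673 the treated libraries were above DMSO at 3 days and below DMSO at 20 days, without overlap at either time. CHLA10 libraries had 184, 167 and 159 CPM under BMS-986158, against 184, 185 and 188 CPM under DMSO at 3 days. The 20-day libraries had 146, 142 and 129 CPM under BMS-986158, against 121, 130.1 and 153 CPM under DMSO. The CHLA10 groups overlapped at both times. TC32 had 51.6, 75.4 and 69.6 CPM under BMS-986158, against 86.9, 92.8 and 73.6 CPM under DMSO, where treated replicate 2 lay above DMSO replicate 3. BUB1B fell in A673 at 20 days (-0.47 ± 0.11, adjusted p = 0.00104) and TC32 (-0.37 ± 0.11, adjusted p = 0.0084), and at 3 days it was at 0.22 in A673 (adjusted p = 0.122). In TC32 the fall was lost without treated replicate 1 (adjusted p = 0.0879) or DMSO replicate 2 (0.0551). The kinase gene BUB1 (0.30 ± 0.12, adjusted p = 0.0439) and TTK, which encodes the checkpoint kinase MPS1 (0.40), rose in CHLA10 at 20 days, that of BUB1 not without treated replicate 1 or 2 or DMSO replicate 1 or 2 (adjusted p from 0.0712 to 0.236). MAD2L1, the checkpoint protein that binds CDC20, fell in TC32 (-0.34), but not without DMSO replicate 3 (adjusted p = 0.0631). BUB3, the partner that docks BUB1 and BUBR1, ran from -0.08 in TC32 to 0.20 in A673 at 3 days and was not called.

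The 4 genes of the anaphase switch are CDC20, the activator of the anaphase-promoting complex, UBE2C, its ubiquitin-conjugating enzyme, PTTG1 (securin) and ESPL1 (separase). CDC20, UBE2C and PTTG1 fell in TC32, and ESPL1 fell in CHLA10 (-0.74) and A673 (-0.29 ± 0.12, adjusted p = 0.0498) at 3 days and in A673 at 20 days (-0.59). PTTG1 (ENSG00000164611, chromosome 5, 160421822 to 160428744, plus strand) had 87.1, 71.3 and 66.7 CPM under BMS-986158, against 168, 127 and 154 CPM under DMSO in TC32. In CHLA10 it had 88.5, 88.0 and 71.3 CPM under BMS-986158, against 72.7, 72.8 and 76.0 CPM under DMSO at 3 days. At 20 days CHLA10 had 84.9, 84.9 and 85.8 CPM under BMS-986158, against 63.3, 59.9 and 74.2 CPM under DMSO. The groups did not overlap in TC32, with treated libraries lower, or in CHLA10 at 20 days, with treated libraries higher, and they overlapped in CHLA10 at 3 days. A673 libraries had 114, 105 and 107 CPM under BMS-986158, against 129, 133 and 101 CPM under DMSO at 3 days. By 20 days A673 had 115, 116 and 91.6 CPM under BMS-986158, against 108, 109.7 and 111 CPM under DMSO, and both A673 comparisons overlapped. PTTG1 fell in TC32 (-0.99 ± 0.12, adjusted p = 2.41e-07) and rose in CHLA10 at 20 days (0.37 ± 0.12, adjusted p = 0.0173). The rise was lost without DMSO replicate 1 (adjusted p = 0.0540) or 2 (0.0792), and the fall of ESPL1 in A673 at 3 days without any 1 of the 6 libraries (0.0589 to 0.193).

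UBE2C (ENSG00000175063, chromosome 20, 45812576 to 45816957, plus strand) had 85.9, 80.4 and 82.2 CPM under BMS-986158, against 137, 143 and 173 CPM under DMSO in TC32. CHLA10 libraries had 113, 116 and 96.6 CPM under BMS-986158, against 121, 117 and 118 CPM under DMSO at 3 days. At 20 days CHLA10 had 114, 122 and 124 CPM under BMS-986158, against 84.8, 88.2 and 109 CPM under DMSO. None of these comparisons overlapped, and in CHLA10 the treated libraries were lower at 3 days and higher at 20 days. A673 cells had 165, 163 and 163 CPM under BMS-986158, against 218, 198 and 131 CPM under DMSO at 3 days, where DMSO replicate 3 lay below and the other two above the treated libraries. The 20-day A673 libraries had 120.4, 129 and 101 CPM under BMS-986158, against 161, 155 and 151 CPM under DMSO. UBE2C fell in TC32 (-0.87 ± 0.13, adjusted p = 5.1e-06) and in A673 at 20 days (-0.41 ± 0.13, adjusted p = 0.0115) and rose in CHLA10 at 20 days (0.35 ± 0.13, adjusted p = 0.0366). The rise was lost without treated replicate 2 or 3 or DMSO replicate 1 or 2 (adjusted p from 0.0649 to 0.128). The fall in A673 was lost in a fit of A673 alone (adjusted p = 0.0509). CDC20 fell in TC32 by 0.66 (SE 0.12, adjusted p = 9.68e-05) and was not called in the other 4 comparisons with DMSO.

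Kinetochore genes fell in TC32, with 4 of 6 lower and 1 higher, where 22.8% of all genes were lower and 22.3% higher. Elsewhere 0 were called in CHLA10 and A673 at 3 days (29.8% and 33.7% of all genes), 1 rose in CHLA10 and 1 fell in A673 at 20 days (16.5% and 19.9% of all genes). CENPA, the histone H3 variant that marks centromeres (ENSG00000115163, chromosome 2, 26764289 to 26801067, plus strand), had 21.2, 24.1 and 26.8 CPM under BMS-986158, against 37.3, 31.8 and 36.6 CPM under DMSO in TC32. In CHLA10 it had 58.1, 58.3 and 41.3 CPM under BMS-986158, against 51.3, 51.7 and 53.5 CPM under DMSO at 3 days. At 20 days CHLA10 had 52.8, 56.3 and 40.3 CPM under BMS-986158, against 32.8, 34.2 and 38.4 CPM under DMSO. The TC32 groups did not overlap, with treated libraries lower, and the CHLA10 groups did not overlap at 20 days, with treated libraries higher. The A673 libraries had 40.4, 43.2 and 44.7 CPM under BMS-986158, against 55.1, 58.0 and 38.6 CPM under DMSO at 3 days. At 20 days A673 had 44.6, 51.7 and 40.5 CPM under BMS-986158, against 55.6, 51.0 and 50.5 CPM under DMSO, and both comparisons overlapped. CENPA fell in TC32 (-0.55 ± 0.15, adjusted p = 0.00304) and rose in CHLA10 at 20 days (0.50 ± 0.14, adjusted p = 0.00757). SLC35F6 overlaps it on the same strand with 66.5% as many counts.

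Of the NDC80 complex, which couples kinetochores to microtubules, NDC80 (-0.55), NUF2 (-0.48) and SPC25 (-0.72) fell in TC32, and NUF2 fell in A673 at 20 days too (-0.34), but not without any 1 library other than treated replicate 2 (adjusted p from 0.0521 to 0.114). SPC25 in TC32 had 20.1, 20.1 and 17.5 CPM under BMS-986158, against 36.4, 28.2 and 30.5 CPM under DMSO, without overlap. CENPE, a kinesin of the outer kinetochore, had 47.4, 70.8 and 67.7 CPM under BMS-986158, against 47.5, 52.5 and 46.4 CPM under DMSO in TC32, where it was the 1 gene of the 44 that rose (0.34 ± 0.12, adjusted p = 0.0261). Treated replicate 1 lay among its DMSO libraries, and the call was lost without treated replicate 2 or 3 or DMSO replicate 1 or 3 (adjusted p from 0.0674 to 0.174). CENPF, a large protein of the outer kinetochore, ran from -0.30 in A673 at 20 days to 0.13 in CHLA10 at 3 days and was not called.

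Among 6 genes of spindle motors and spindle assembly, 3 fell in TC32, 1 in A673 and 0 in CHLA10 at 3 days, and at 20 days 3 fell in A673 and 1 in CHLA10. The shares of all genes that fell were 22.8%, 18.4%, 15.7%, 19.9% and 17.2%, in that order. HMMR, a microtubule-associated receptor for hyaluronan (ENSG00000072571, chromosome 5, 163460203 to 163491945, plus strand), had 47.7, 35.8 and 36.0 CPM under BMS-986158, against 71.4, 57.0 and 94.6 CPM under DMSO in A673 at 3 days. By 20 days A673 had 62.5, 67.2 and 53.3 CPM under BMS-986158, against 105, 86.1 and 92.6 CPM under DMSO. In both, each treated library was below each DMSO library. CHLA10 libraries had 36.2, 32.3 and 27.4 CPM under BMS-986158, against 35.6, 34.1 and 32.6 CPM under DMSO at 3 days, with overlap. At 20 days CHLA10 had 29.8, 30.1 and 30.5 CPM under BMS-986158, against 39.1, 44.04 and 39.4 CPM under DMSO, without overlap. TC32 had 32.1, 37.7 and 37.97 CPM under BMS-986158, against 43.5, 46.0 and 39.5 CPM under DMSO, also lower without overlap. HMMR fell in A673 at 3 days (-0.90 ± 0.14, adjusted p = 1.75e-05) and 20 days (-0.63 ± 0.14, adjusted p = 0.0006) and in CHLA10 at 20 days (-0.44 ± 0.14, adjusted p = 0.0174), and in TC32 it was at -0.26 (adjusted p = 0.139). The call in CHLA10 was lost without treated replicate 1 or 2 or DMSO replicate 2 (adjusted p from 0.0562 to 0.0996).

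TPX2, which activates AURKA on the spindle, fell in TC32 (-0.60) and in A673 at 20 days (-0.34), and KIF2C, a kinesin that takes microtubules apart, fell in the same comparisons (-0.48 in TC32 and -0.29 ± 0.10 in A673, adjusted p = 0.022 in A673). DLGAP5, which stabilises spindle fibres at kinetochores, fell in TC32 (-0.30 ± 0.11, adjusted p = 0.0292). That call was lost without treated replicate 1 or DMSO replicate 1 or 3 (adjusted p from 0.0765 to 0.191), and that of KIF2C in A673 without treated replicate 3 (0.0969) or DMSO replicate 1 (0.0610). KIF11, the motor that pushes spindle poles apart, ran from -0.09 in A673 at 20 days to 0.23 in CHLA10 at 20 days. KIF18A, which dampens chromosome movement on the plate, ran from -0.16 in A673 at 3 days to 0.10 in TC32. Neither KIF11 nor KIF18A was called in a comparison with DMSO.

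Of the 5 cytokinesis genes, 1 fell in A673, 1 in TC32 and 0 in CHLA10 at 3 days. The shares of all genes that fell were 18.4%, 22.8% and 15.7%, in that order. At 20 days 1 fell and 1 rose in A673, where 19.9% of all genes fell and 19.7% rose. In CHLA10 0 were called then, against 33.7% of all genes. KIF20A, a kinesin of the midzone, fell in A673 at 3 days (-0.43) and 20 days (-0.30) and in TC32 (-0.46), although BRD8 and CDC23 overlap it on the opposite strand with 79.4% and 51% as many counts. Its 20-day call in A673 was lost without treated replicate 3 (adjusted p = 0.159) or DMSO replicate 1 (0.161). ANLN, the actin-binding protein of the cleavage furrow, had 391, 401 and 214 CPM under BMS-986158, against 267, 218 and 231 CPM under DMSO in A673 at 20 days, and rose there (0.49 ± 0.16, adjusted p = 0.0152). Treated replicate 3 had the lowest level of the 6 and the other two had the highest, and the call was lost without treated replicate 1 or 2 or DMSO replicate 2 or 3 (adjusted p from 0.0547 to 0.123). KIF23, a midzone motor, ran from -0.17 in TC32 to 0.19 in A673 at 3 days, and ECT2, the exchange factor that activates RHOA, from -0.07 in TC32 to 0.27 in CHLA10 at 20 days, and neither was called.

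PRC1, which bundles midzone microtubules (ENSG00000198901, chromosome 15, 90966038 to 90995629, minus strand), had only 0 to 38 counts a library and 475 in all, while each of the other 43 genes had at least 241 in every library. AC068831.7, which overlaps it on the same strand, had 5989 counts, so the counts listed for PRC1 cannot be read as its level. It was listed at 0.318, 1.203 and 0.564 CPM under BMS-986158, against 0.938, 0.84 and 1.32 CPM under DMSO in CHLA10 at 3 days. At 20 days CHLA10 had 0.583, 0.739 and 0.856 CPM under BMS-986158, against 0.235, 0.566 and 1.08 CPM under DMSO. All groups were near the lower end of what was measured, and they overlapped in both. In A673 it was at 0.625, 1.28 and 0.769 CPM under BMS-986158, against 1.77, 1.04 and 0.566 CPM under DMSO at 3 days. The 20-day A673 libraries had 0.318, 0.254 and 0.857 CPM under BMS-986158, against 0.896, 0.734 and 0.872 CPM under DMSO. TC32 had 0.0988, 0.295 and 0.587 CPM under BMS-986158, against 0, 0.839 and 0 CPM under DMSO. None of its changes was called, with log2 changes from -0.78 to 0.23.

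TOP2A, the topoisomerase that untangles sister chromatids (ENSG00000131747, chromosome 17, 40388516 to 40417950, minus strand), was called in no comparison with DMSO. In CHLA10 it had 1109, 1028 and 879 CPM under BMS-986158, against 1003, 973 and 991 CPM under DMSO at 3 days. At 20 days it had 943, 976 and 679.5 CPM under BMS-986158, against 834, 883 and 850.3 CPM under DMSO. Treated and DMSO libraries overlapped at both times. In A673 it had 403, 384 and 384 CPM under BMS-986158, against 399.8, 400.5 and 392.4 CPM under DMSO at 3 days, with overlap. At 20 days A673 had 332, 344 and 340.0 CPM under BMS-986158, against 422, 383 and 411 CPM under DMSO, where the treated libraries were lower without overlap (-0.26 ± 0.12, adjusted p = 0.0885). TC32 had 396, 603 and 573 CPM under BMS-986158, against 466, 512 and 482 CPM under DMSO, with overlap.

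AURKA was among the 3 lowest called genes in 4 of the 5 comparisons with DMSO, and PKMYT1 in 3. In CHLA10 at 3 days the lowest were PKMYT1, AURKA and ESPL1, with ESPL1 at -0.74 ± 0.12 (adjusted p = 2.24e-05). In A673 at 3 days they were HMMR, PKMYT1 and AURKA, and in TC32 AURKA, BIRC5 and PTTG1. In A673 at 20 days they were AURKA, PLK1 (-0.75 ± 0.10, adjusted p = 7.99e-07) and PKMYT1. In CHLA10 at 20 days the highest were CENPA, INCENP and TTK (0.40 ± 0.11, adjusted p = 0.00572). The 20-day CHLA10 count moved with single libraries, and CENPA, INCENP and TTK are the 3 of its 9 calls kept under every alternative: 16 genes rose and 1 fell without DMSO replicate 3, whereas 3 rose and 0 fell without DMSO replicate 2, 4 and 1 without DMSO replicate 1, and 5 and 0 without BMS-986158 replicate 2. By library-size scaling without TMM 6 rose and 3 fell, and with RLE size factors 7 and 2, where the main fit had 8 and 1. For A673 at 3 days 3 rose and 10 fell without DMSO replicate 3, 4 fell without DMSO replicate 1, and 5 fell without DMSO replicate 2 or any 1 of the treated libraries. With the 4 libraries that stand apart left out together, 26 rose and 1 fell in CHLA10 at 20 days and 8 rose and 13 fell in A673 at 3 days. The shares of all genes called in these refits are not given here, so their counts are not set against the background. In TC32 22 to 26 were called, whichever library was left out.

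The DMSO cells of CHLA10 differed between the times. At 20 days 21 of the 44 genes were lower than at 3 days and 0 were higher (47.7% and 0%, where 7.06% of all genes were lower and 8.05% higher, 15.1% in all), and the groups did not overlap for 32 lower genes, against 19.3% of all genes. None was lower by 2-fold, as 0.377% of all genes were. All 4 passenger complex genes, 3 of 4 mitotic kinases and 3 of 5 checkpoint genes were among the 21. PKMYT1 had 46.1, 39.7 and 77.1 CPM under 20-day DMSO, against 96.0, 113 and 107 CPM under 3-day DMSO. It was the lowest (-0.96 ± 0.14, adjusted p = 8.66e-05), before INCENP (-0.73 ± 0.12, adjusted p = 0.000323) and PLK1 (-0.68 ± 0.10, adjusted p = 7.47e-05). CDC20 had 154, 157 and 237 CPM under 20-day DMSO, against 275, 289 and 292 CPM under 3-day DMSO. In both genes the 20-day replicate 3 lay well above the other two 20-day libraries. Over the 44 genes the 20-day DMSO libraries had median differences of -0.47, -0.43 and -0.19 (log2) from the 3-day DMSO mean, and the 20-day treated libraries -0.18, -0.18 and -0.38. Leaving out single libraries gave 16 to 27 lower genes and leaving out the 4 that stand apart gave 33. For those refits the shares of all genes are not given here, so the counts show only how the calls move. The called genes nearest to 0 were TPX2 (-0.31 ± 0.10, adjusted p = 0.0342), BUB1 (-0.39 ± 0.12, adjusted p = 0.0226) and CENPE (-0.39 ± 0.12, adjusted p = 0.0297), and KIF23 (-0.43) and KIF11 (-0.40), called in no comparison with BMS-986158, were lower too. These 5 calls were lost without 1 or more single libraries (adjusted p from 0.0529 to 0.128).

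**Figure D4:**
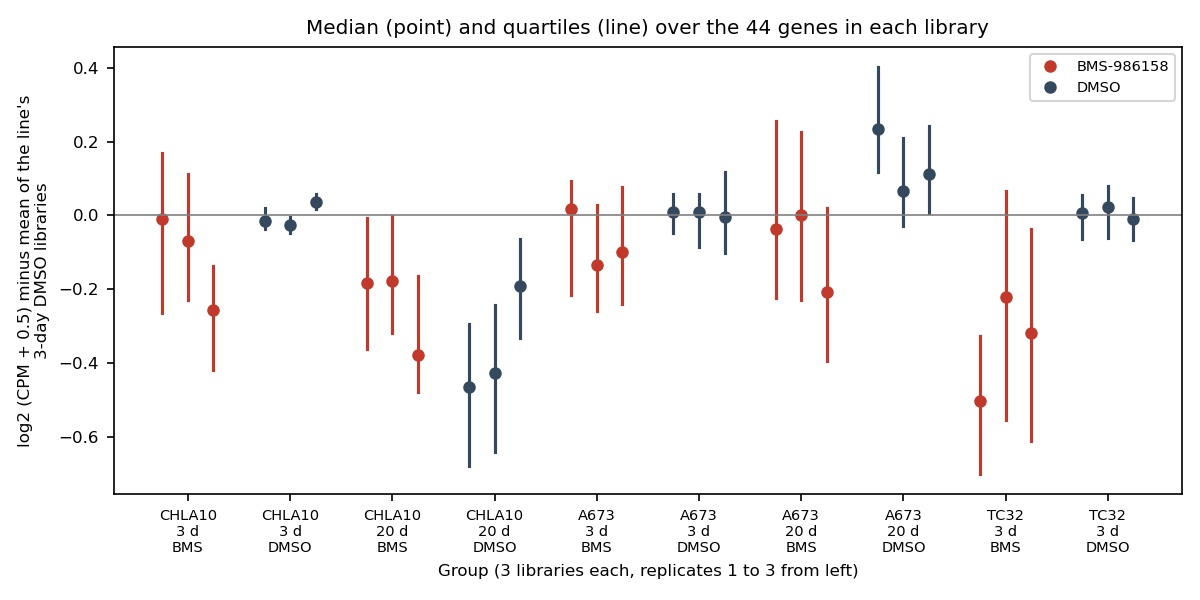
Median (point) and quartiles (line) over the 44 genes of the log2 difference between each library and the mean of the 3-day DMSO libraries of its line, for 30 libraries in 10 groups, BMS-986158 in red left of DMSO in dark blue. The 20-day DMSO libraries of CHLA10 lie at -0.47, -0.43 and -0.19, and the treated TC32 libraries at -0.50, -0.22 and -0.32.

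In the DMSO cells of A673 1 of 44 was higher at 20 than at 3 days and 0 were lower, against 3.02% and 3.08% of all genes and 6.1% in all. The 1 was CCNB1 (0.38 ± 0.10, adjusted p = 0.0266), with 413, 367 and 388 CPM under 20-day DMSO, against 303, 271 and 324 CPM under 3-day DMSO. For 17 genes the 20-day libraries were all higher, against 10.5% of all genes, and none of the 44 differed 2-fold (0.0838% of all genes higher and 1.39% lower). The count was 14 (13 higher and 1 lower) without 3-day DMSO replicate 3, 2 without 20-day DMSO replicate 3, and 0 without 20-day DMSO replicate 1 or 3-day DMSO replicates 1 or 2. Leaving out the libraries that stand apart gave 19 higher and 2 lower. DESeq2 called 5, limma-voom 3, and a fit of A673 alone 0. The shares of all genes called in these refits are not given here, so these counts are not set against the background.

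The change under BMS-986158 differed between times in CHLA10. It was higher at 20 days for 8 genes and lower for 0 (18.2% and 0%), against 3.35% and 2.97% of all genes, or 6.32% in all. These were all 4 passenger complex genes, AURKB, INCENP, BIRC5 and CDCA8, with PKMYT1, FOXM1, CCNA2 and PLK1. PKMYT1 had the widest difference (1.11 ± 0.20, adjusted p = 0.0021); its treated libraries were at like levels at both times, and all 3 of its 20-day DMSO libraries were below all 3-day ones. BIRC5 differed by 0.70 ± 0.14 (adjusted p = 0.00492), and the smallest called difference was that of PLK1 (0.46 ± 0.14, adjusted p = 0.0433). These differences use the same DMSO libraries as the comparison of DMSO between times, and so are no separate support for it. The count was 14 without 20-day DMSO replicate 3 and 2 without 20-day DMSO replicate 1 or 2. It was 5 without 20-day treated replicate 1 or 2, 3-day treated replicate 1 or 3, or any 3-day DMSO library, 5 with no filter on low counts, and 23 with the 4 libraries that stand apart left out. Only PKMYT1 and BIRC5 were called under every alternative. As the shares of all genes in these refits are not given here, their counts are not set against the background.

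In A673 the change differed between times for 2 genes, both lower at 20 days (4.55%, against 2.93% of all genes; 4.33% were higher and 7.26% were called in all). They were BUB1B (-0.69 ± 0.15, adjusted p = 0.00583) and PLK1 (-0.44 ± 0.14, adjusted p = 0.0489). Under BMS-986158 BUB1B lay above DMSO at 3 days but was not called there, and it was called lower at 20 days. The count was 1 without treated replicates 1 or 2 or DMSO replicate 1 at 20 days, without treated replicates 2 or 3 or DMSO replicates 1 or 2 at 3 days, with no filter on low counts or in a fit of A673 alone, and 7 with 1 higher without the libraries that stand apart. No shares of all genes are given here for these refits.

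**Figure D5:**
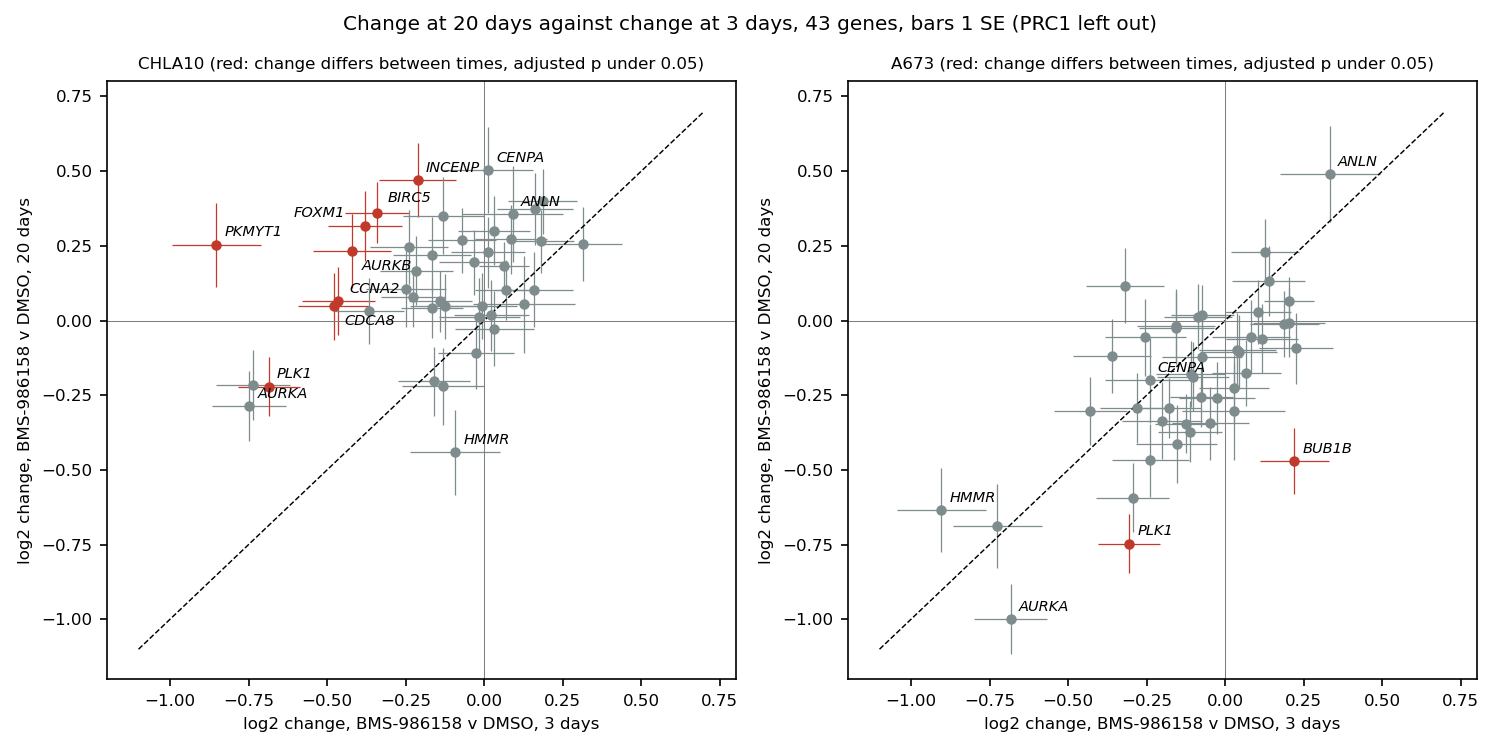
Log2 change under BMS-986158 against DMSO at 20 days (vertical axis) and at 3 days (horizontal axis) for 43 genes (without PRC1) in CHLA10 (left) and A673 (right), with bars of 1 SE; the dashed line is equal change, and red points are genes whose change differed between times at adjusted p under 0.05. In CHLA10 8 genes stand above the line in red, PKMYT1 farthest, and in A673 BUB1B and PLK1 stand below it.

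At 3 days the change in TC32 was lower than in CHLA10 for 10 genes and higher for 1 (22.7% and 2.27%), where 6.47% of all genes were lower, 7.34% higher and 13.8% called in all. PTTG1 (-1.16 ± 0.17, adjusted p = 9.67e-05) and BIRC5 (-0.74 ± 0.14, adjusted p = 0.00128) were the lowest, and ESPL1 was higher (0.61 ± 0.17, adjusted p = 0.014), next to which TPX2 was the least low (-0.44). The call of ESPL1 was lost without TC32 treated replicate 2 (adjusted p = 0.0637), and that of TPX2 without most single libraries (0.0553 to 0.0946). The count was 6 without CHLA10 treated replicate 1 or 2, TC32 treated replicate 3 or TC32 DMSO replicate 1 or 3, and 7 without CHLA10 DMSO replicate 1 or 2 or with no filter on low counts. Shares of all genes in these refits are not given here. Against A673 the change in TC32 was lower for 12 and higher for 1 (27.3% and 2.27%), where 11.8% and 12.4% of all genes were, 24.2% in all. BIRC5 (-1.0 ± 0.14, adjusted p = 2.56e-05) and PTTG1 (-0.84 ± 0.17, adjusted p = 0.000753) were again lowest, and HMMR was higher (0.64 ± 0.20, adjusted p = 0.0193), with AURKA the least low (-0.46). Without single libraries the calls of HMMR (adjusted p from 0.0503 to 0.127) and AURKA (0.0725 to 0.121) were lost. These 2 differences share the TC32 libraries.

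Between A673 and CHLA10 the change differed for 3 genes at 3 days, against 10.5% of all genes: HMMR (-0.81 ± 0.20, adjusted p = 0.00938) and NEK2 (-0.67 ± 0.18, adjusted p = 0.0132) were lower in A673 and CDCA8 was higher (0.51 ± 0.16, adjusted p = 0.0388). Without single libraries the calls of NEK2 (adjusted p 0.0590 and 0.0606) and CDCA8 (0.0510 to 0.0655) were lost. Without A673 3-day DMSO replicate 3 there were 5. At 20 days it was lower in A673 for 12 and higher for 0 (27.3% and 0%), against 10.5% and 11.4% of all genes and 21.9% in all. PKMYT1 (-0.94 ± 0.20, adjusted p = 0.00104) and INCENP (-0.81 ± 0.17, adjusted p = 0.0011) led, and AURKA, UBE2C, CENPA and FOXM1 were among the 12, with CCNB1 (-0.44) and TPX2 (-0.39) nearest to 0, both not called without some single libraries (adjusted p from 0.0504 to 0.114). Without CHLA10 20-day DMSO replicate 3 there were 20. For the refits that gave 5 and 20, the shares of all genes are not given here.

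Another 119 mitotic genes, none of them among the 44, were counted the same way. After 3 days 53 fell and 21 rose in TC32 (44.5% and 17.6%, against 22.8% and 22.3% of all genes). In CHLA10 21 fell and 7 rose (17.6% and 5.88%, against 15.7% and 14%), and in A673 8 fell and 16 rose (6.72% and 13.4%, against 18.4% and 15.3%). The share that fell in CHLA10 and the share that rose in A673 are near the background. At 20 days 7 fell and 34 rose in CHLA10 (5.88% and 28.6%, against 17.2% and 16.5% of all genes), and 31 fell and 8 rose in A673 (26.1% and 6.72%, against 19.9% and 19.7%). In the DMSO cells of CHLA10 50 were lower and 2 higher at 20 than at 3 days (42% and 1.68%, against 7.06% and 8.05% of all genes). In those of A673 1 was lower and 9 higher (0.84% and 7.56%, against 3.08% and 3.02%). Their medians were -0.18 in TC32, -0.10 in CHLA10 and 0.07 in A673 at 3 days, 0.19 in CHLA10 and -0.09 in A673 at 20 days.

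In TC32 18 of 30 other kinetochore and centromere genes fell and 2 rose, 11 of 24 other spindle and cytokinesis genes fell and 6 rose, and 19 of 34 other regulators fell and 3 rose. Of 19 condensin and cohesin genes 7 rose and 3 fell there. Over all genes tested 22.8% fell and 22.3% rose in TC32. SPC24, of the NDC80 complex, fell in TC32 (-1.16), CHLA10 at 3 days (-0.28) and A673 (-0.70 at 3 days and -0.67 at 20 days), and KNL1, the kinetochore scaffold, rose in TC32 (0.58) and in CHLA10 (0.69 at 3 days and 0.67 at 20 days). CDCA5 (sororin), which protects cohesin, fell in TC32 (-0.99), in CHLA10 at 3 days (-0.50) and in A673 at 20 days (-0.34) and rose in CHLA10 at 20 days (0.35), while the cohesin subunit gene STAG2 fell in CHLA10 at 20 days (-0.68). CDC25A, the phosphatase that acts from G1/S on, fell in TC32 (-1.24), CHLA10 at 3 days (-0.93) and A673 at 20 days (-0.58), and ANAPC16, a subunit of the anaphase-promoting complex, rose in each of the 5 comparisons, by 0.33 in A673 at 3 days to 0.92 in CHLA10 at 3 days. KIF18B, a kinesin of microtubule ends, fell in CHLA10 at 3 days (-0.45), TC32 (-0.39) and A673 at 20 days (-0.45), and NUMA1, which focuses spindle poles, rose in TC32 (0.62) and in A673 at 20 days (0.42).

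Of 12 genes of the MuvB and DREAM complexes, which bind the CHR, 3 rose and 2 fell in TC32, where 22.3% of all genes rose and 22.8% fell. At 3 days 1 rose and 4 fell in CHLA10 (14% and 15.7% of all genes), and 2 rose and 1 fell in A673 (15.3% and 18.4%). At 20 days 1 rose and 3 fell in CHLA10 (16.5% and 17.2%), and 2 rose and 4 fell in A673 (19.7% and 19.9%). LIN9, a core MuvB subunit, fell in each of the 5 comparisons, by 0.94 in CHLA10, 0.30 in A673 and 0.78 in TC32 at 3 days, and by 0.90 in CHLA10 and 0.27 in A673 at 20 days, on the log2 scale (adjusted p from 4.62e-08 to 0.0275). LIN37, another core subunit, rose in A673 at 20 days (1.42 ± 0.495, adjusted p = 0.0227), where the SE of LIN9 was 0.099. It was not called in the other comparisons with DMSO, with log2 changes from -0.93 to -0.14. Its call was not recomputed without single libraries.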

How the data were processed

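RNA of 30 libraries was measured by sequencing. The deposited table holds raw counts per Ensembl gene, made by the authors, with 33538 genes and 1 column for each library; no column was left unmapped. The submitters' processing notes name FastQC, Trim Galore, STAR and DESeq2 and the build GRCh38 (hg38); not given in the sources used here are versions, the counter, the annotation and whether strand was used. Symbols and places came from GENCODE 29 and from RefSeq tables.

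Counts were filtered with filterByExpr by group, which left 16713 genes, scaled by TMM and fitted with edgeR 4.0.16 (glmQLFit and glmQLFTest, robust, R 4.3.3) over all 30 libraries with 10 group means, so that the groups share 1 estimate of spread. Adjusted p-values are Benjamini-Hochberg over all genes tested, and a gene was called at 0.05. SEs were taken from the log2 change and its F statistic. CPM use TMM-scaled library sizes. The script was tested on simulated data. No 2 libraries agreed within sampling noise (lowest chi-square per gene 2.2). The labels put all libraries in 1 batch, so no batches could be compared.

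The genes, their roles and the other lists were chosen with earlier results of these data known. Each of the 44 genes is named. In each role the gene with the widest range of change, and each gene called in opposite directions, is given library by library, and values are given for the called genes at both ends of each comparison (3 at each end, and 2 for a difference). Of each other list the 2 called genes with the largest mean change are named. Alternatives were DESeq2 1.42.0, limma-voom (limma 3.58.1), RLE factors, library size only, no filter on low counts, a fit of the lines compared alone, a replicate block, and leaving out libraries. As to pairing, same-numbered treated and DMSO libraries deviated together in CHLA10 at 20 days (correlations of 0.314, 0.259 and 0.481), and in no other comparison were all 3 correlations above 0.1; what the numbers stand for is not in the labels. Figures were drawn with Python 3.11.15 and matplotlib 3.10.9.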

Additional observations from a re-analysis of the deposited data

Results flagged for a closer look

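Differences between 2 effects of BMS-986158, each tested as an interaction term in edgeR with adjustment over all genes, were as follows. The share of all genes called in either direction stands beside each count. Between 20 and 3 days in CHLA10 8 genes differed (18.2%, against 6.32% of all genes), with PKMYT1 at 1.11, BIRC5 at 0.70, CDCA8 at 0.53 and PLK1 at 0.46 (log2, 20 days minus 3 days). Between 20 and 3 days in A673 2 differed, BUB1B at -0.69 and PLK1 at -0.44 (4.55%, below the 7.26% of all genes). Between TC32 and CHLA10 at 3 days 11 differed (25%, against 13.8% of all genes), with PTTG1 at -1.16, BIRC5 at -0.74, TPX2 at -0.44 and ESPL1 at 0.61 (TC32 minus CHLA10). Between TC32 and A673 13 differed (29.5%, near the 24.2% of all genes), with BIRC5 at -1.0, PTTG1 at -0.84, AURKA at -0.46 and HMMR at 0.64 (TC32 minus A673). Between A673 and CHLA10 at 3 days 3 differed (6.82%, below the 10.5% of all genes), HMMR at -0.81, NEK2 at -0.67 and CDCA8 at 0.51 (A673 minus CHLA10). At 20 days 12 differed (27.3%, near the 21.9% of all genes in either direction), with PKMYT1 at -0.94, INCENP at -0.81, CCNB1 at -0.44 and TPX2 at -0.39. All 12 were lower in A673, where 10.5% of all genes were lower and 11.4% higher. Groups of 3 libraries are too small to look for single outlying values.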

How the results depend on the processing

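Without 1 library at a time, the number of the 44 genes called ran from 9 to 10 in CHLA10, 4 to 13 in A673 and 22 to 26 in TC32 at 3 days, 3 to 17 in CHLA10 and 12 to 14 in A673 at 20 days, 16 to 27 in CHLA10 and 0 to 14 in A673 between DMSO times, 2 to 14 in CHLA10 and 1 to 3 in A673 for the effect between times, 6 to 14 for TC32 against CHLA10, 11 to 18 for TC32 against A673, and 2 to 5 at 3 days and 10 to 20 at 20 days for A673 against CHLA10. Where this leaves a group with fewer libraries, their spread is taken to be like that of the other groups. Without the 4 libraries that stand apart it was 21 in A673 at 3 days, 27 in CHLA10 at 20 days, 33 in CHLA10 and 21 in A673 between DMSO times, 23 in CHLA10 and 7 in A673 for the effect between times, 21 for TC32 against CHLA10, 25 for TC32 against A673, and 13 at 3 days and 25 at 20 days for A673 against CHLA10. In the fit of the lines compared alone it was 15 in CHLA10 at 20 days, 0 in A673 between DMSO times and 1 for the effect between times in A673. With no filter on low counts it was 5 in CHLA10 and 1 in A673 for the effect between times and 7 for TC32 against CHLA10. Between DMSO times in A673 DESeq2 called 5 and limma-voom 3. The shares of all genes called in these refits are not given, so the counts show only how the calls move. The causes were not tested.

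The fit with a replicate block called 10 in CHLA10 at 20 days (9 higher and 1 lower) and moved no count of the 44 genes by over 1.5 times. Over all genes it called 1610 (897 higher and 713 lower) for the effect between times in CHLA10, where the main fit had 1057 (560 and 497). Library size without TMM moved the median of all genes in A673 at 20 days to -0.11 and the calls over all genes there to 2510 higher and 4251 lower, where the main fit had 3298 and 3329, and the 44 genes to 0 higher and 21 lower. It moved the split over all genes between DMSO times in A673 to 327 higher and 526 lower, where the main fit had 505 and 514, that for the effect between times in A673 to 626 and 688, where it had 724 and 490, and that for A673 against CHLA10 at 20 days to 1538 and 2237, where it had 1904 and 1762; for TC32 against A673 it moved the median of all genes to 0.11. Of the 141 calls of a gene of the 44 over the 13 comparisons, 89 held under all alternatives, 52 were lost under some, 51 of them without a single library, and 0 reversed. The calls lost without a single library had adjusted p from 0.0501 to 0.277. Those that held numbered 7 of 10 in CHLA10, 4 of 8 in A673 and 21 of 26 in TC32 at 3 days, 3 of 9 in CHLA10 (CENPA, INCENP and TTK) and 9 of 17 in A673 at 20 days, 16 of 21 in CHLA10 and 0 of 1 in A673 between DMSO times, 2 of 8 in CHLA10 (BIRC5 and PKMYT1) and 1 of 2 in A673 (BUB1B) for the effect between times, 5 of 11 for TC32 against CHLA10, 10 of 13 for TC32 against A673, and 1 of 3 at 3 days (HMMR) and 10 of 12 at 20 days for A673 against CHLA10.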
